A study of Rattus norvegicus with 32 samples.

Results

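Of 32 RNA-sequencing libraries made from the nucleus accumbens shell of rats, 10 held transcripts of fat cells. They were chosen by a measured value: Plin1, which encodes the perilipin coating the fat droplet, stood at 5 or more CPM (counts per 1000000, a gene's share of the library's total count). They are called the fat libraries here. The 12 libraries with Plin1 under 5 CPM and Alb, the gene of serum albumin, under 20 CPM are called the clean libraries. The other 10 had Plin1 under 5 CPM and Alb of 20 CPM or more, and are called the liver libraries after that gene.

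The accumbens shell belongs to the ventral striatum and consists mostly of GABAergic medium spiny neurons. In the study, shocks were delivered with a neutral cue or with a lemon odour, that cue was placed in later anxiety tests, and cannabidiol (CBD) or vehicle was given ahead of them. The 4 groups hold 8 libraries each: vehicle or CBD, either one with the neutral or with the odour cue, here the anxiety cue. All libraries are labelled genotype WT and tissue Brain, with no allele or agent beyond the cue and CBD. The labels used here give no strain, age, sex or animal, so the p-values below measure only the spread between libraries, which may be technical.

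A white fat cell stores triglyceride in 1 large droplet. Perilipin 1 guards that droplet, Cidec makes droplets fuse and grow, and adiponectin (Adipoq) and leptin (Lep) are hormones the cell secretes. The nuclear receptor PPARγ (Pparg) and C/EBPα (Cebpa) drive precursor cells to become fat cells and keep their genes on. Brain tissue itself is not known for fat cells, whereas depots elsewhere in the body also hold fibroblasts, vessels and macrophages.

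The 250 bases before the start of the 4 defining genes are shown because all 4 were higher in each fat library than in any other library. Among the fat libraries their levels did not keep fixed ratios, as given below. The sequences are RefSeq's, on build GRCr8, printed in the direction of transcription. Capitals mark the C/EBP palindrome TTGNNCAA and the CCAAT box (CCAAT, or ATTGG where it lies on the other strand).
Plin1: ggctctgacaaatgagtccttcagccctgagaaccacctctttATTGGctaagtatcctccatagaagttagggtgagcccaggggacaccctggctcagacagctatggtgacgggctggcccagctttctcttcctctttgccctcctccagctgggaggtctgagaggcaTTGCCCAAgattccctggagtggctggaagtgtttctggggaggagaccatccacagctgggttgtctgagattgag
Adipoq: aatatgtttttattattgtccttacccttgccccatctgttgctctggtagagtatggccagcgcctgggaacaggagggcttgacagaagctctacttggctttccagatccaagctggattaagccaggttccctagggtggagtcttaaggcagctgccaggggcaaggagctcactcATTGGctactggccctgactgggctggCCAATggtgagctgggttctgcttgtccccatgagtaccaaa
Cidec: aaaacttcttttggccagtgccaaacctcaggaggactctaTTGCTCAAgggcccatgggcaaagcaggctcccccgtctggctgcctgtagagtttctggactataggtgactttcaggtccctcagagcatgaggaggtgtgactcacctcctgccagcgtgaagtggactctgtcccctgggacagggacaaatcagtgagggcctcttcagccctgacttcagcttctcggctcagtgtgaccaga
Lep: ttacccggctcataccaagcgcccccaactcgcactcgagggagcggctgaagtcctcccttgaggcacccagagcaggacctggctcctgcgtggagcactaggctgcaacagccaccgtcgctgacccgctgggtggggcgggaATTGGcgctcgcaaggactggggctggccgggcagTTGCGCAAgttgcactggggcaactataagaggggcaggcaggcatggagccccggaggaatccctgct
They lie at chr1:143086149-143086398 (minus strand), chr11:91240170-91240419 (minus), chr4:148137116-148137365 (minus) and chr4:58626288-58626537 (plus). TTGNNCAA, which reads alike on both strands, stood 77 to 70 bases before the start of Plin1, 209 to 202 before Cidec and 69 to 62 before Lep. It was in 5.25% of 33469 rat promoters of the same length, and CCAAT on either strand was in 34.0%. TATAAA (12.9% of promoters) and the direct repeat bound by PPAR dimers (0.367%), both searched on either strand, had no match in these 4 windows. Of 23 fat cell genes looked up, 16 had an entry, and 4 of those held the palindrome. A match describes letters and is not a measured site.

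Total counts (M, counts in units of 1000000) ran from 13.7 to 22.0 M in the fat libraries, 11.7 to 20.3 M in the clean and 15.3 to 24.0 M in the liver libraries. The library titles are numbers, whose meaning the labels do not give. The fat libraries carry titles 4 to 29, the liver libraries 5 to 30 and the clean libraries 31 to 47. In title order the 20 fat and liver libraries alternated, with a fat next to a liver library in 19 of 19 neighbouring pairs. The difference between fat and clean libraries and that between low and high titles therefore cannot be told apart. The liver libraries share the title range of the fat libraries and serve below as the other comparison.

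**Figure D1:**
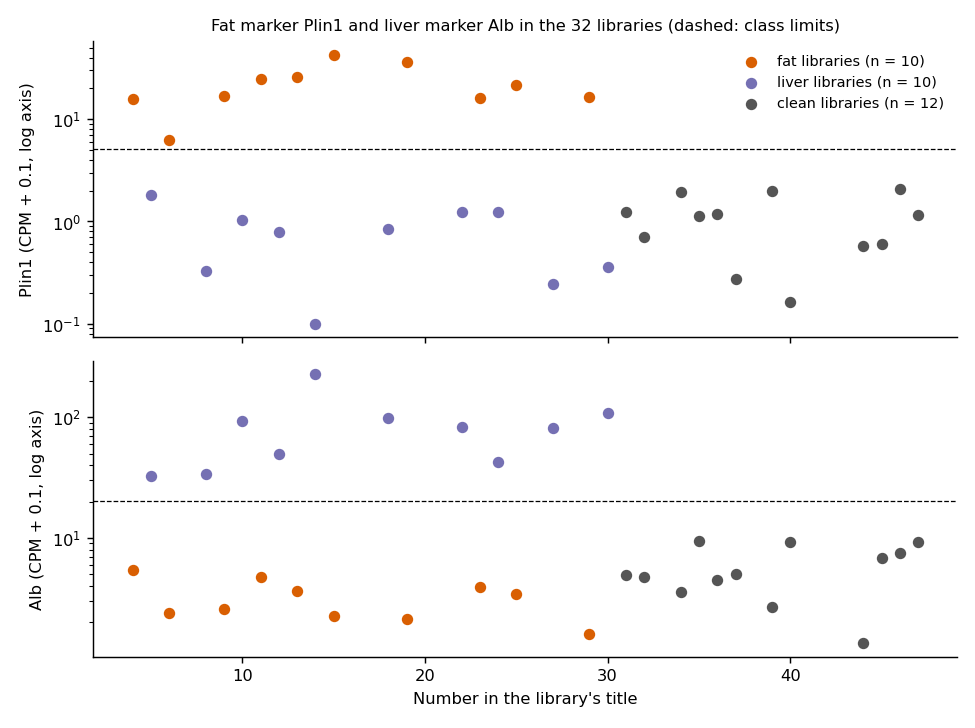
Level of Plin1 and Alb in CPM (log axis, each with 0.1 added) against the title number, 1 point per library, coloured by class, with the 5 and 20 CPM limits dashed. Fat and liver libraries alternate from title 4 to 30, and all libraries from title 31 on are clean.

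Plin1 ran from 6.16 to 42.6 CPM in the fat libraries, with a median of 19.3. In the clean libraries it ran from 0.0636 to 1.99 (median 1.04) and in the liver libraries from 0 to 1.73 (median 0.711). These are the values that set the classes. The lowest fat library was CBD with the anxiety cue 2 at 6.16 CPM, and the highest clean library was CBD with the anxiety cue 8 at 1.99 CPM. In the order of titles the 10 fat libraries read 15.6, 6.16, 16.8, 24.7, 25.7, 42.6, 36.4, 15.9, 21.8 and 16.4 CPM of Plin1.

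The 3 other defining markers did not enter the rule, but they belong to the same cells and are given as a description. Adipoq ran from 2.12 to 21.2 CPM (median 7.25) in the fat libraries and reached at most 0.959 in the clean and 0.702 in the liver libraries. Cidec ran from 3.54 to 17.5 CPM (median 10.1), against at most 1.10 clean and 1.91 liver. Lep ran from 1.20 to 9.73 CPM (median 3.72), against at most 1.18 clean and 0.281 liver. For all 4 markers each fat library lay above each of the other 22. The log2 difference between fat and clean libraries, fitted with the study group as a term, was 4.19 for Plin1, 4.28 for Adipoq, 4.41 for Cidec and 4.17 for Lep. Their summed level was 13.0 to 84.3 CPM in the fat libraries, 0.172 to 5.16 in the clean and 0.384 to 3.51 in the liver libraries, a sum in which Plin1 is the largest part. Whether fewer fat cells or less RNA per fat cell sets a low value cannot be told apart in bulk RNA.

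Across all genes 17299 were tested in the 22 fat and clean libraries with edgeR's quasi-likelihood test, in which 3 of the 4 study groups hold both classes. Past an adjusted p of 0.05 were 145 genes (0.838%), of which 143 were higher in the fat libraries (0.827%) and 2 lower (0.0116%). The median log2 difference over all tested genes was -0.0012. Arg2, a mitochondrial arginase, was the lower gene with a symbol, at 5.45 to 7.80 CPM against 6.63 to 9.40 (-0.37 ± 0.09 (SE), adjusted p = 0.0421). Its ranges overlapped, and it kept its call with 5 of the 22 libraries left out in turn. For 70 genes (0.405%) the lowest fat library lay above the highest clean library, and for 0 genes the highest fat library lay below the lowest clean one. Of all tested genes 1371 had an unadjusted p under 0.05 (7.93%). Of the 143 higher genes, 70 had a mean under 1 CPM in the clean libraries. In the clean libraries alone 39 of the 143 fail the filter on low counts, so they were tested because the fat libraries are high, and those named below are given without a test. The summed level of all 143 was 1382 to 2325 CPM in the fat libraries (median 1809) and 771 to 968 in the clean (median 870), a difference of 0.0939% of counts. That difference covers only the 143 genes called higher. The share of fat transcripts in a library was not measured. The libraries were sorted by Plin1, so genes of the fat cell lists are given without a test.

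**Figure D2:**
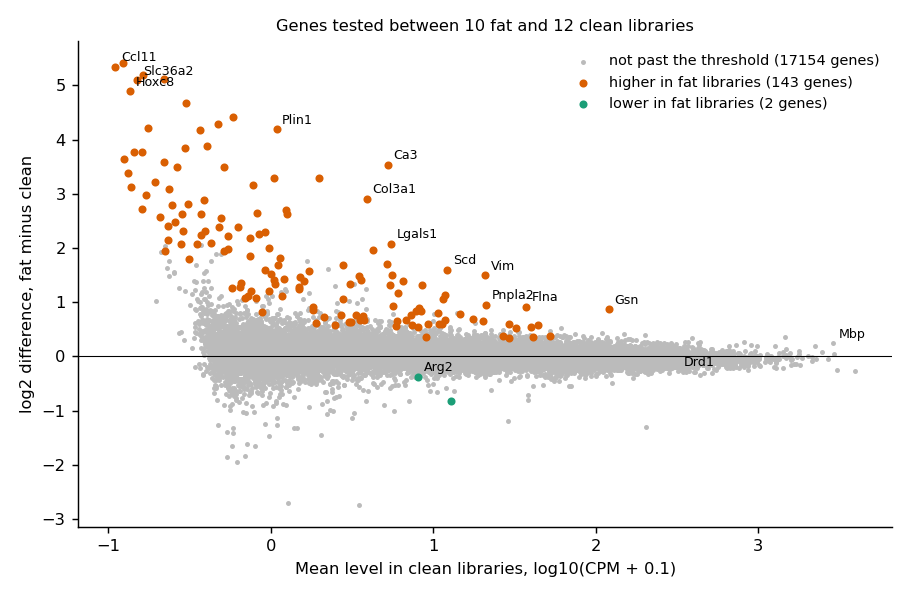
Log2 difference between fat and clean libraries against the mean level in clean libraries (log10 of CPM plus 0.1), 1 point per tested gene, coloured where past an adjusted p of 0.05 (143 higher, 2 lower). The largest differences sit at low levels, and Gsn is the most abundant gene marked as higher.

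Both master regulators of the fat cell were present. Pparg ran from 2.45 to 9.46 CPM (median 4.30) in the fat libraries and from 0.112 to 0.802 in the clean, a log2 difference of 3.49. Cebpa ran from 19.2 to 34.1 CPM (median 23.6) against at most 15.5 clean, a log2 difference of 1.06. These were the 2 of 8 tested transcription factors whose fat libraries all lay above the clean ones, beside 0.405% of all tested genes. The list's median was 0.16, beside -0.0012 over all tested genes. Cebpa, which hepatocytes also use, reached 58.9 CPM in the liver libraries. Cebpb (-0.24), Klf15 (0.23) and Nr1h3 (0.63) overlapped between the classes.

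The droplet and its lipases came next. Lipe, the hormone-sensitive lipase, ran from 22.5 to 39.9 CPM (median 30.0) against at most 20.8 clean and 19.6 liver. Pnpla2, the lipase that starts triglyceride breakdown, ran from 32.6 to 68.4 CPM (median 41.9) against at most 26.3 clean and 25.0 liver. Both were present in every clean library too, and their log2 differences were 0.69 and 0.95. With Plin1 and Cidec they made 4 of 11 tested genes of the list that did not overlap with the clean libraries (list median 0.27). The share without overlap over all tested genes was 0.405%. Mgll, which finishes triglyceride breakdown and also degrades an endocannabinoid in neurons, stood at -0.17, and Plin4 at 0.08.

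Among 7 tested genes of lipid uptake, 3 did not overlap, beside 0.405% of all tested genes, and the median was 0.43. Fabp4, the fatty acid carrier of fat cells, ran from 1.31 to 4.78 CPM against at most 0.443 clean. Cd36, a fatty acid translocase, ran from 0.167 to 1.27 CPM against at most 0.105, a low level in either class. Angptl4, which inhibits lipoprotein lipase, ran from 10.6 to 19.5 CPM against at most 10.5 clean, but reached 20.4 in the liver libraries. Lpl itself, the lipase that frees fatty acids from lipoproteins, overlapped at 79.4 to 181 CPM against a clean median of 114 (0.43).

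Among lipid synthesis genes, 2 of 20 tested did not overlap, beside 0.405% of all tested genes, and the median was 0.30. Agpat2, an acyltransferase of triglyceride synthesis, ran from 2.94 to 11.0 CPM against at most 1.21 clean, a log2 difference of 3.16. Pck1, which makes glycerol for storage, ran from 1.76 to 33.5 CPM against at most 1.74 clean, although liver libraries reached 80.3. Scd, a desaturase, ran from 14.3 to 94.7 CPM (median 38.6) and overlapped with the clean libraries, which reached 22.5. Its brain relative Scd2 stood at 0.05, and Fasn (0.17), Acly (0.07) and Srebf1 (0.23) overlapped too.

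Hormones other than adiponectin and leptin were not raised beyond overlap: 2 of 8 tested adipokine genes did not overlap. The share over all tested genes was 0.405%, and the list's median was 0.08. Resistin (Retn) had a median of 0 CPM in the fat libraries and reached at most 0.231, and Cfd, the adipsin gene, ran from 0.109 to 1.17 CPM against at most 0.974 clean. In the list of hormone response, 3 of 14 did not overlap and the median was 0.52. Adrb3, the β3-adrenergic receptor through which fat cells receive sympathetic input, ran from 0.845 to 15.6 CPM against at most 0.459 clean, a log2 difference of 4.68. Cav1, the main protein of the caveolae that crowd the fat cell membrane, ran from 27.1 to 47.2 CPM against at most 25.5 clean (0.65).

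The genes listed for brown fat did not stand apart as a list. Of 10 tested genes 0 passed an adjusted p of 0.05 in edgeR's test or in DESeq2, 1 had an unadjusted p under 0.05, the median was 0.07, and Ucp1, the heat-producing uncoupling protein, had a median of 0.0580 CPM in the fat libraries against 0.0686 in the clean. Outside the fat lists, Slc36a2, an amino acid transporter, is 1 of the genes that fail the filter in the clean libraries alone. It ran from 0.723 to 3.68 CPM in the fat libraries against at most 0.147 clean and 0.0983 liver. Ca3, a carbonic anhydrase abundant in fat and muscle, ran from 22.9 to 172 CPM (median 49.3) against at most 8.94 clean (3.54 ± 0.41, adjusted p = 2.07e-05). Liver libraries reached 126 CPM, and against them the adjusted p was 0.295.

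Of 21 tested genes of stromal cells and matrix, 10 were higher in the fat libraries by edgeR's test, 11 did not pass, and the median was 0.78, beside 0.827% of all tested genes called higher and a median of -0.0012. Dpt is the 1 of these 10 that fails the filter in the clean libraries alone. In a list of meninges and fibroblasts 3 of 14 were higher. Col3a1, a fibrillar collagen, ran from 8.44 to 70.5 CPM (median 19.6) against at most 6.07 clean, a log2 difference of 2.91 ± 0.43 (adjusted p = 3.73e-04). Dpt, the matrix protein dermatopontin, ran from 0.867 to 4.04 CPM against at most 0.459 clean. Gsn, the actin-severing protein gelsolin, which oligodendrocytes also express, ran from 181 to 295 CPM (median 247) against 82.7 to 150 clean and 98.3 to 132 liver (0.87 ± 0.11, adjusted p = 4.55e-05). For Col3a1, Dpt and Gsn the fat libraries did not overlap with the clean ones, while Col3a1 reached 14.4 CPM in the liver libraries.

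Other genes outside the fat lists with a small p have different functions. Lgals1, galectin 1, ran from 14.8 to 32.3 CPM against at most 8.77 clean and 14.0 liver (2.08 ± 0.17, adjusted p = 5.49e-07). Ccdc80, a matrix protein secreted by fat tissue, ran from 11.4 to 25.2 CPM against at most 6.71 clean and 7.58 liver (1.51 ± 0.14, adjusted p = 1.06e-06). Tspo, a mitochondrial outer membrane protein that imaging studies use as a marker of microglial activation, ran from 5.07 to 15.6 CPM against at most 1.78 clean (2.64 ± 0.27, adjusted p = 4.62e-06). Liver libraries reached 9.98 CPM of Tspo, so fat and liver libraries overlapped. Slc1a5, a transporter of neutral amino acids, ran from 5.94 to 16.8 CPM against at most 5.07 clean and 3.78 liver (1.48 ± 0.16, adjusted p = 8.04e-06). The 19 tested microglial genes had 0 members past the threshold in edgeR or DESeq2, 0 at an unadjusted p under 0.05 and a median of 0.06.

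Ccl11, the chemokine eotaxin, and Hoxc8 also fail the filter in the clean libraries alone. Ccl11 ran from 0.347 to 1.76 CPM against at most 0.0738 clean and 0.111 liver. Hoxc8, a homeobox gene that sets position along the trunk and is silent in forebrain, ran from 0.374 to 3.17 CPM against at most 0.0738 clean and 0.148 liver. Over the 38 Hox genes in the file, summed counts were 1064 in the 10 fat, 236 in the 12 clean and 234 in the 10 liver libraries. Per library the sum was 3.47 to 9.61 CPM in the fat, 0.689 to 1.89 in the clean and 0.748 to 1.87 in the liver libraries, so no fat library overlapped with the others.

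Markers of other tissues had few calls. Lists of skeletal muscle (7 tested), skin and mammary gland (4), mesothelium (1) and other organs (3) had 0 members past the threshold in edgeR or DESeq2 and 0 at an unadjusted p under 0.05. Blood (6 tested) and hepatocyte genes (12) had 0 calls in edgeR and 1 each in DESeq2. They had 1 and 8 members at an unadjusted p under 0.05, which 7.93% of all tested genes had. Of the hepatocyte genes 3 of 12 lay above 0, with a median of -0.91. The summed hepatocyte markers were 16.5 to 38.8 CPM in the fat, 10.7 to 34.9 in the clean and 147 to 1259 in the liver libraries. Of 8 tested immune genes 1 passed, Cd74, the invariant chain of antigen presentation, which ran from 1.88 to 11.3 CPM against at most 2.06 clean (1.47 ± 0.28, adjusted p = 0.00544). Several near-identical copies had high levels too: Rpl31l1, Rps12l3 and Ftl1l1 ran to 3.0, 1.74 and 2.05 CPM in the fat libraries. They reached 2.89, 1.36 and 3.33 CPM in the liver libraries, against at most 0.458, 0.354 and 0.148 clean. Counting may split reads between such copies, so their values are uncertain.

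The genes most likely to be read as brain genes are those with appreciable levels in the clean libraries. Of 10439 tested genes with a clean mean of 10 CPM or more, 22 were higher in the fat libraries, at log2 differences of 0.35 to 1.6. Over all 17299 tested genes 143 were higher (0.827%). Of the 22, 7 belong to the fat lists, and 8 did not overlap with the clean libraries, beside 70 of all tested genes (0.405%). Apart from Gsn, the following were picked after their values were seen.

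Vim, the intermediate filament of fibroblasts, vessels and reactive astrocytes, ran from 26.7 to 107 CPM (median 52.8) against a clean median of 20.7 and maximum of 27.7 (1.5 ± 0.24, adjusted p = 8.89e-04). Flna, an actin crosslinker, ran from 42.9 to 114 CPM against a clean maximum of 47.7 (0.91 ± 0.16, adjusted p = 0.00224). For both genes the lowest fat libraries reached into the clean range. Tns1 (0.59 ± 0.11, adjusted p = 0.00486), Col4a1 (0.60 ± 0.11, adjusted p = 0.0034) and Hspg2 (0.78 ± 0.14, adjusted p = 0.00286), genes of cell adhesion and basement membrane, were also higher. Without the 5 fat libraries titled 13 and below Col4a1 missed the threshold (0.56, adjusted p = 0.0525). Ehd2, which sits at caveolae, was at 0.79 ± 0.13 (adjusted p = 0.00173).

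Brain gene lists held 6 of the 143 higher genes. Over 18 lists of neuronal, glial, vascular and metabolic genes, 363 genes were tested. By edgeR's test 6 were higher (1.65%, beside 0.827% of all tested genes) and 0 lower (beside 0.0116%). An unadjusted p under 0.05 was found for 33 (9.09%, beside 7.93% of all tested genes). The 6 were Pparg and Scd, both of the fat lists, and 4 genes that vessels, meninges or choroid plexus share with other tissue. Because fat list genes are given without a test, the 1.65% that includes Pparg and Scd is not read as an excess of brain genes. Aqp1, a water channel of choroid plexus and of vessels outside the brain, ran from 1.16 to 7.0 CPM against at most 1.03 clean (2.30 ± 0.28, adjusted p = 4e-05). The collagens Col1a1 (1.70 ± 0.29, adjusted p = 0.00186) and Col1a2 (1.39 ± 0.27, adjusted p = 0.00829) and the proteoglycan Dcn (0.77 ± 0.18, adjusted p = 0.0494) were the others. Dcn kept its call with 6 of the 22 libraries left out in turn and in 4 of 13 other settings. Without the fat libraries titled 15 and above Scd, given without a test, stood at 1.02, and Dcn at 0.96 (adjusted p = 0.113).

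Other brain lists had members that leaned 1 way without a call. Oligodendrocyte genes had 20 of 20 members above 0 with a median of 0.19, and endothelial and mural genes 22 of 23 with a median of 0.25. Medium spiny neuron genes had 3 of 29 above 0 and a median of -0.13, and genes of mitochondrial complex I had 1 of 37 above 0 and a median of -0.09. These 4 lists had 0 calls in edgeR and in DESeq2, and 2, 10, 0 and 2 members at an unadjusted p under 0.05, which 7.93% of all tested genes had. Mbp, myelin basic protein, ran from 2590 to 4776 CPM in the fat and 1376 to 4154 in the clean libraries (0.25, adjusted p = 0.711). Drd1, the D1 dopamine receptor of medium spiny neurons, ran from 57.3 to 363 CPM in the fat and 110 to 460 in the clean libraries (-0.28, adjusted p = 0.867), so striatal transcripts were present in each of them.

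**Figure D3:**
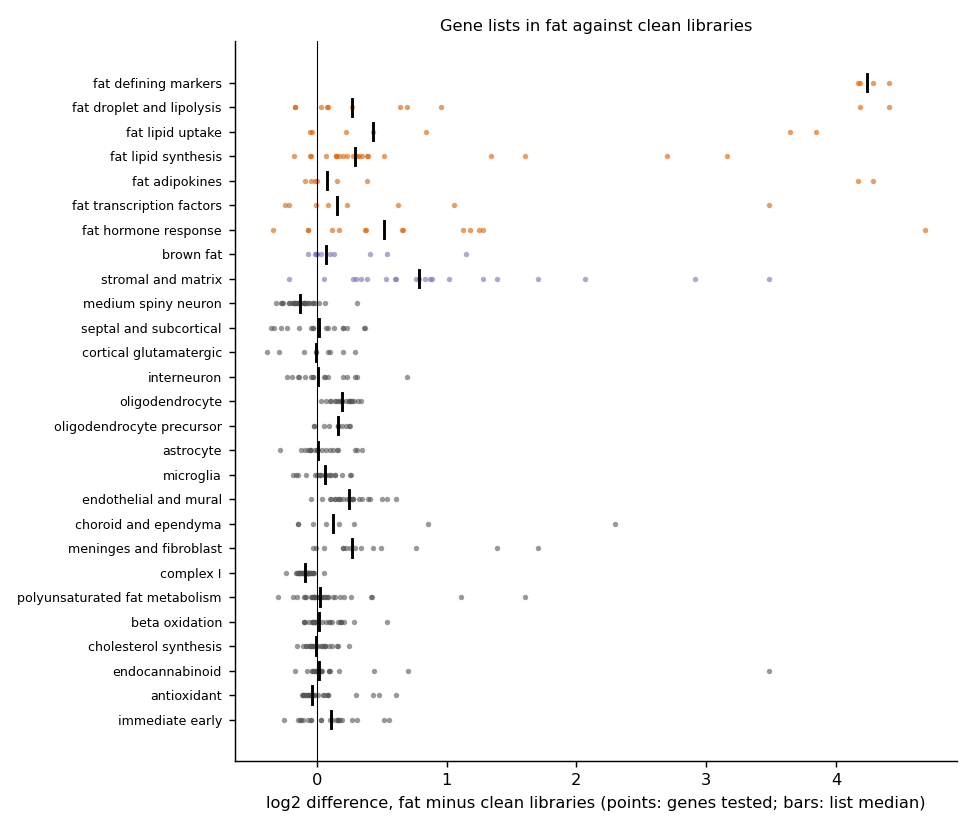
Log2 difference between fat and clean libraries for each tested member of the gene lists (points), with the list median as a bar. Members of the fat and stromal lists reach above 2, while medium spiny neuron and complex I genes stay near 0.

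Ucp2 and Gpx3, genes of brain redox metabolism, did not pass the threshold in edgeR's test with all fat libraries. Ucp2, a mitochondrial carrier that microglia and macrophages express, ran from 16.8 to 46.0 CPM in the fat and 16.1 to 26.8 in the clean libraries (0.43 ± 0.12, adjusted p = 0.136, and 0.0537 in DESeq2). It passed in edgeR without the fat libraries titled 15 and above (0.68, adjusted p = 0.0074), with no study group term (0.56, adjusted p = 0.0328), against all libraries with Plin1 under 5 CPM (0.50, adjusted p = 0.0162) and without vehicle with the anxiety cue 3 (0.49, adjusted p = 0.0358). Gpx3, the secreted glutathione peroxidase, ran from 14.2 to 98.9 CPM against 7.44 to 51.2 (0.61 ± 0.36, adjusted p = 0.698). Both overlapped. Slc17a6, the glutamate transporter of thalamic and septal neurons, was at 20 CPM or more in 3 of 10 fat, 3 of 12 clean and 0 of 10 liver libraries.

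Against the liver libraries, which share the title range, 52 of 17462 genes were higher in the fat libraries (0.298%) and 79 lower. The study group was a term here too, and both classes were present only with the anxiety cue. Vehicle held 3 fat and 2 liver libraries there, and CBD 2 and 4. Vehicle with the neutral cue (5 fat, 0 liver) and CBD with the neutral cue (0 fat, 4 liver) did not inform this difference. Of the 143 genes above, 40 were called higher against the liver libraries too, and the 2 comparisons share the 10 fat libraries. Gsn was at 0.82 (adjusted p = 4.72e-04), Lgals1 at 2.12 (adjusted p = 4.5e-05), Vim at 1.23 (adjusted p = 0.0147) and Anxa1, an anti-inflammatory annexin, at 4.03 (adjusted p = 3e-05). Flna (0.67, adjusted p = 0.155), Tns1 (0.56, adjusted p = 0.0886), Ahnak (0.59, adjusted p = 0.126), Col1a1 (1.31, adjusted p = 0.155) and Aqp1 (0.92, adjusted p = 0.43) did not pass. For 37 tested genes (0.214%) the lowest fat library lay above the highest liver library, and 33 of them were among the 143.

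The fat libraries did not carry 1 fixed profile. Relative to Plin1, Cidec varied 1.59-fold between the libraries, Pparg 2.40-fold and Adipoq 3.64-fold. Lep varied 6.78-fold, Adrb3 12.8-fold and Col3a1 37.6-fold. In title order from 4 to 29, Lep read 6.54, 1.20, 8.23, 9.73, 9.47, 3.07, 2.99, 1.84, 4.37 and 2.14 CPM. Its 3 highest values are those of vehicle with the neutral cue 1, 2 and 3.

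Col3a1, Mmp12, Gpnmb and Atp6v0d2 were mostly higher in low than in high titles among the fat libraries. They were picked after the values were seen and are given without a test. Col3a1 read 23.3, 68.1, 70.5, 64.7 and 65.1 CPM in the fat libraries titled 4 to 13, and 12.5, 13.7, 12.2, 15.9 and 8.44 CPM in those titled 15 to 29. Mmp12, a macrophage elastase, read 0.63, 14.5, 8.44, 11.5 and 12.4 CPM in the first 5 and at most 0.244 in the others. Gpnmb, a glycoprotein of lipid-laden macrophages, read 8.65, 33.2, 21.3, 28.6 and 26 CPM against 7.14 to 8.76. Atp6v0d2, a proton pump subunit of macrophages and osteoclasts, was at 1.97 to 8.06 CPM in the first 5 and at most 0.334 in the others. For Col3a1 and Mmp12 the library titled 4 lay between the other 4 low titles and the later ones. For Gpnmb it lay within the range of the later ones. Other named genes went both ways. With only the fat libraries titled 4 to 13 against the clean ones, Vim stood at 2.17, Col1a1 at 2.39, Flna at 1.27 and Cd74 at 2.07. With only those titled 15 to 29 they stood lower, at 0.88, 0.91, 0.56 and 0.83. Ccdc80 stood at 1.27 and Gsn at 0.80 with the first set, and at 1.80 and 0.98 with the second.

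Without the 5 fat libraries titled 13 and below, against the same clean libraries, Col3a1 stood at 1.76 (adjusted p = 0.00128), Vim at 0.88 (adjusted p = 0.0234) and Col1a1 at 0.91 (adjusted p = 0.0207). Flna (0.56, adjusted p = 0.0885), Ahnak (0.50, adjusted p = 0.282), Col1a2 (0.71, adjusted p = 0.351) and Cd74 (0.83, adjusted p = 0.347) then missed the threshold. Gsn (0.98, adjusted p = 6.39e-04) and Lgals1 (2.01, adjusted p = 1.12e-04) passed it. Without the 5 titled 15 and above, Tns1 (0.46, adjusted p = 0.214) and Ahnak (0.58, adjusted p = 0.124) missed it.

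Adrb3, Ca3 and Cyp2e1, also picked after their values were seen, were higher in the later titles. Adrb3 was at 0.845 to 2.64 CPM in the fat libraries titled 4 to 13 and at 4.57 to 15.6 in those titled 15 to 29. Ca3 was at 22.9 to 42.5 and then 56.2 to 172 CPM, and Cyp2e1, a cytochrome of fat and liver, at 0.664 to 2.84 and then 5.62 to 22.0. The ranges of these 3 genes did not overlap between the 2 runs of titles. Other genes of fat cells differed from them: the 4 highest values of Lep are in low titles, and Agpat2 stood at 3.13 with only the first run against the clean libraries and 3.41 with only the second. The first run holds vehicle with the neutral cue 1, 2 and 3 and CBD with the anxiety cue 1 and 2, and the second holds vehicle with the neutral cue 4 and 5 and vehicle with the anxiety cue 2, 3 and 5.

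**Figure D4:**
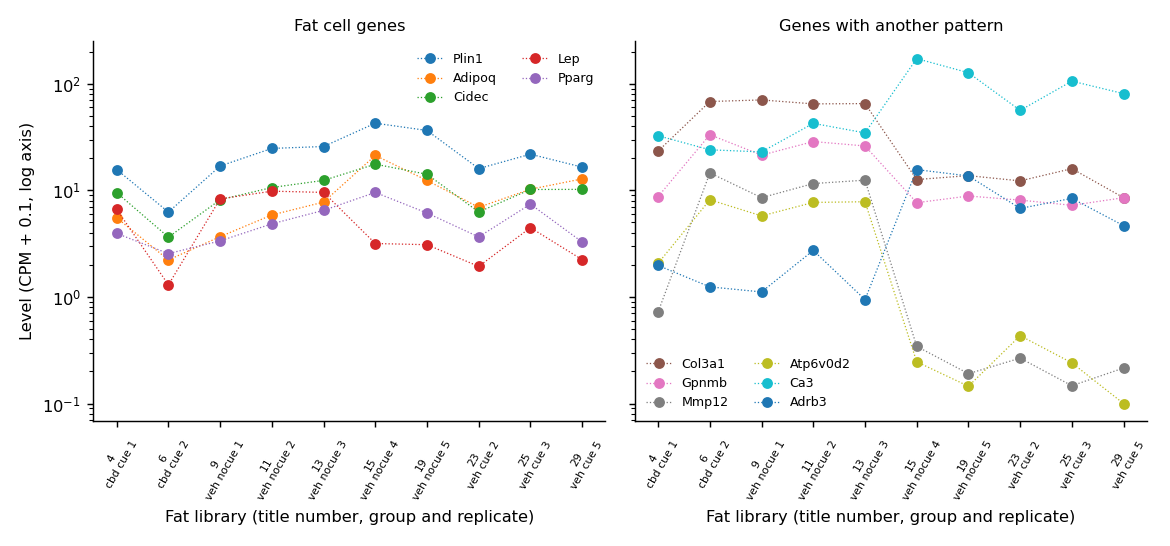
Level in CPM plus 0.1 (log axis) of fat cell genes (left) and of other genes, picked after their values were seen (right), in the 10 fat libraries, ordered by title, 1 point per library and gene, joined by dotted lines for reading only. Plin1 and Cidec run nearly parallel, whereas Col3a1 is lower, and Ca3 and Adrb3 higher, from title 15 on.

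By group, the fat libraries were 5 of 8 for vehicle with the neutral cue, 0 of 8 for CBD with the neutral cue, 3 of 8 for vehicle with the anxiety cue and 2 of 8 for CBD with the anxiety cue. Vehicle thus held 8 of 16 and CBD 2 of 16 (2-sided Fisher's exact test, p = 0.0538, adjusted over 2 tests 0.108). Both cues held 5 of 16 (p = 1 by the same exact test). Among the 20 libraries titled up to 30, vehicle held 8 of 10 and CBD 2 of 10. That title limit follows from the classes, since it leaves out exactly the clean libraries, so no test is given. That narrower count was added after the titles had been seen.

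The summed defining markers ran from 0.172 to 84.3 CPM (median 43.7) with vehicle and neutral cue, and from 0.384 to 46.4 (median 2.86) with vehicle and anxiety cue. With CBD they ran from 0.318 to 3.83 (median 1.58) under the neutral cue and from 0.393 to 37.0 (median 1.80) under the anxiety cue. Vehicle with the neutral cue was the group with the most fat libraries.

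The effect of CBD under the neutral cue sets 8 libraries with no fat library against 8 with 5. In the fit to all 32 libraries 0 of 17059 genes were called (0%) in that comparison, with 3852 at an unadjusted p under 0.05 (22.6%), and DESeq2 called 349. Plin1 was at -4.65 ± 1.04 and ranked 18 by p (adjusted p = 0.0697, as for each of the genes ranked above it). Gsn had a mean of 113 ± 14.3 CPM (SD, n = 8) with CBD and 206 ± 72.6 (n = 8) with vehicle, a log2 difference of -0.84 (adjusted p = 0.0697 in edgeR). Without the fat libraries the vehicle mean was 127 ± 11.2 (n = 3) and the difference -0.16.

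Other genes were nearer 0 without the fat libraries. Vim stood at -1.48 in all libraries and 0.01 without the fat ones, Pnpla2 at -0.85 and -0.13, Lipe at -0.60 and 0.07, and Flna at -0.62 and 0.19. Cav1 stood at -0.70 and -0.29. By contrast Mfng, a glycosyltransferase that modifies Notch and the gene with the smallest p, was at -1.16 and -1.20, and Gpx3 at -1.71 and -1.67. Of the 143 higher genes, 132 were tested here, with a median of -0.52 in all libraries. Without the fat libraries 123 were tested, with a median of 0.41, and CBD then holds 4 liver libraries of 8 while vehicle holds 0 of 3. The median was 0.16 with fat status as covariate and -0.036 in the clean libraries only. These values share libraries with the fat comparison and are set side by side only.

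**Figure D5:**
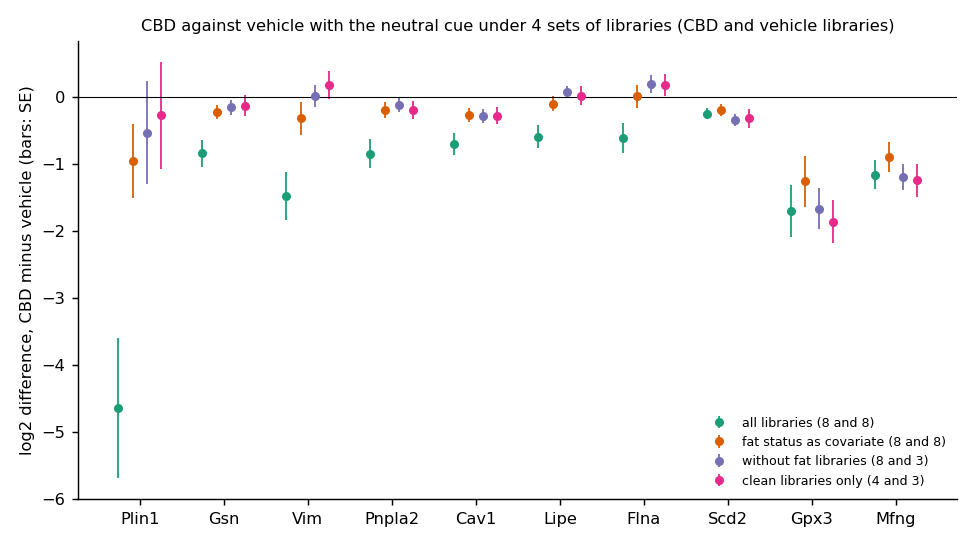
Log2 difference between CBD and vehicle under the neutral cue for 10 genes (points, bars are SE), in all libraries, with fat status as covariate, without the fat libraries and in clean libraries only. Gsn, Vim, Pnpla2 and Lipe move to near 0 without the fat libraries, while Mfng and Gpx3 stay below -1 there.

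The cue effect in vehicle libraries sets 3 fat libraries of 8 against 5 of 8. There too 0 genes were called in all libraries (0%) by edgeR, with 2175 at an unadjusted p under 0.05 (12.7%), and DESeq2 called 0. The 143 genes had a median of -0.54 in all libraries, 0.19 without the fat libraries, -0.17 with fat status as covariate and -0.096 in the clean libraries only. The CBD effect under the anxiety cue (270 at an unadjusted p under 0.05, 1.58%) and the cue effect with CBD (672, 3.94%) had 0 calls with either tool.

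Leaving out the fat libraries changed the counts of calls. The cue effect in vehicle libraries then had 2972 called genes of 17565 (16.9%) and the CBD effect under the neutral cue 2761 (15.7%), at 5772 (32.9%) and 5731 (32.6%) with an unadjusted p under 0.05. The CBD effect under the anxiety cue and the cue effect with CBD had 0 (0%) in edgeR and DESeq2, at 552 (3.14%) and 564 (3.21%). Vehicle with the neutral cue was then 3 libraries, of which 2 had Slc17a6 at 37.1 and 40.9 CPM. Among all 17565 tested genes, 1370 were called higher and 1602 lower with the cue in vehicle libraries. Medium spiny neuron genes had 15 of 29 called higher with the cue (median 0.88) and septal and subcortical genes 8 of 16 lower (median -1.39). Complex I genes had 14 of 37 lower (median -0.29, 37 of 37 below 0). Without vehicle with the neutral cue 8, the counts dropped to 166 and 50. With fat status as a covariate over all 32 libraries, 0 genes were called in each of the 4 comparisons (0%). At an unadjusted p under 0.05 were 1864 (10.9%) for the cue in vehicle libraries, 1971 (11.6%) for CBD under the neutral cue, 287 (1.68%) for CBD under the anxiety cue and 525 (3.08%) for the cue with CBD. In the 12 clean libraries alone there were also 0 calls (0%) by edgeR, and the same counts were 3802 (22%), 3588 (20.7%), 575 (3.32%) and 486 (2.81%). The part of the Slc17a6 libraries in these calls was not tested.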

How the data were processed

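Reads per gene were deposited by the authors as counts, whole numbers for 34322 gene symbols in 32 columns that match the libraries by title. Per the submitters' processing notes STAR, featureCounts and DESeq2 were used, and the builds mRatBN7.2 and Rnor_6.0 are named with no role. The sources used here give neither versions nor strand settings, so overlapping genes are uncertain. RNA came from a Zymo kit and was selected by polyA, per the labels' protocols.

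Libraries were sorted by CPM of Plin1 (5) and Alb (20). The members, gene lists and tests were chosen with earlier results of these data known. Counts were tested with edgeR 4.0.16 (R 4.3.3): TMM scaling, filterByExpr by study group, a quasi-likelihood fit with study group and fat status, and Benjamini-Hochberg adjustment with a threshold of 0.05. Study comparisons used 4 group means over all 32 libraries. DESeq2 1.42.0 was an alternative. Scripts were tested on simulated data. Of 112 pairs within groups, none held the same values: chi-square per degree of freedom was at least 5.24.

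Named are the 4 markers, up to 6 members per list by size and the 2 with the smallest p, up to 10 genes higher or lower by p outside the fat lists, the 20 largest differences without overlap, and the 5 smallest p per study comparison. Others are said to be picked later. Ttr and mitochondrially encoded protein genes are not analysed here. Precision is limited by depth at levels under 1 CPM.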

Additional observations from a re-analysis of the deposited data

Results flagged for a closer look

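In each group of 8 libraries, single measures were checked for a library far from the others, and 13 of 68 combinations of group and measure stood out. A rate of about 1 in 20 groups by chance does not apply to this count. The measures include Plin1, which sorted the libraries, and genes that go with it, and 3 groups mix fat with other libraries. The count is therefore a description. CBD with the anxiety cue 1 stood above its group in Plin1 (15.6 CPM), Adipoq (5.43), Cidec (9.43), Lep (6.54), Agpat2 (7.45) and the summed defining markers (37.0 CPM). The group's other fat library, CBD with the anxiety cue 2, stood out in Flna (108 CPM) and Col3a1 (68.1 CPM).

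CBD with the neutral cue 3 is a liver library with 226 CPM of Alb and 0 of Plin1. It stood above its group in Pparg (3.94 CPM), Agpat2 (15.5), Ca3 (126), Scd (75.8) and Col3a1 (14.4 CPM), genes that were also higher in the fat libraries. The interaction of cue and CBD had 0 calls over 17059 genes by edgeR's test, and the lowest adjusted p among the named genes was 0.321.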

How the results depend on the processing

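No paired analysis was possible because the labels give no replicate numbers. The 145 genes that differed between fat and clean libraries became 232 with no study group term, 70 without libraries at 20 CPM or more of Slc17a6, 72 with log2 Plin1 as a continuous term and 73 without the fat libraries titled 13 and below. They became 0 with clean libraries held under 0.5 CPM of Plin1, where 3 clean libraries remain and 1 group holds both classes. Leaving out each library in turn gave 110 to 148. The 6 calls in brain lists became 9 with no study group term, 0, 3 and 2 under the clean limit, the Slc17a6 limit and the continuous term, 1 against the liver libraries, and 5 to 6 with each library left out. DESeq2 called 178 genes higher, including all 143.

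Over 49 named genes, 44 kept their sign in each setting in which they were tested (up to 13) and with each of the 22 libraries left out. The 49 include Plin1 and other genes of the fat lists, whose sign follows from sorting by Plin1, so this count is a description. Over 1703 pairs of a gene with a setting or left-out library, 118 lost their call and 4 gained one. Genes of the fat lists were not scored for calls. With the clean limit Scd2 was at -0.072, Drd1 at 0.75 and Mgll at 0.50. Without the fat libraries titled 15 and above Gpx3 was at -0.43, Mbp at -0.028, Scd2 at -0.049, Drd1 at 0.16 and Mgll at 0.12. None of these 8 values passed the threshold. The cause was not tested.

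Leaving out the fat libraries moved the calls from 0 to 2972 (cue in vehicle) and 2761 (CBD, neutral cue). Over single libraries left out these counts ran from 166 to 3603 and from 50 to 3486, lowest without vehicle with the neutral cue 8. The first was 1858 and 1844 without vehicle with the anxiety cue 1 and 6. In all 32 libraries the CBD effect with the neutral cue had 0 calls, 349 by DESeq2 and 0 to 165 with each library left out, 165 without vehicle with the anxiety cue 5 and 68 without 4. Fisher's exact p by drug was 0.023 within titles up to 30 and 0.0155, 0.0538 and 0.0659 at Plin1 limits of 10, 3 and 1 CPM.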
